A study of Mus musculus with 6 samples.

Results

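The genes described are 9 secreted cytokines that epithelial cells can make: thymic stromal lymphopoietin (Tslp), leukaemia inhibitory factor (Lif), the interleukins Il6, Il1a, Il1b and Il33, and the colony-stimulating factors Csf1, Csf2 and Csf3. They were chosen by gene symbol, as every probe set annotated to exactly 1 of these genes, which gave 13 probe sets of the 34945 with a single symbol and 9 of 18193 genes. The list of symbols was drawn up with the differences between PD0332991 and vehicle on these same arrays known, among them the large rise of Tslp. The values of that comparison are therefore a description for these genes, and no p is given for Tslp. Adjusted p values given for the other cytokines come from that same comparison. They are part of the description and not an independent test. Tslp lies on chromosome 18, Lif, Csf2 and Csf3 on chromosome 11, Il1a and Il1b on chromosome 2, Il6 on chromosome 5, Csf1 on chromosome 3 and Il33 on chromosome 19.

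The cells were V720, a mouse breast cancer line labelled as mammary epithelium, given 1 µM PD0332991 or vehicle for 24 h. PD0332991 (palbociclib) blocks the kinases CDK4 and CDK6, which drive cells from G1 into S phase. Each group held 3 samples, described by the submitters as a biological triplicate, and each sample had its own 1-colour Affymetrix array of probe-set intensities. The study asked which transcripts differ after a day of CDK4/6 inhibition. Median intensity over the probe sets other than controls was 69.6 to 71.1 on the PD0332991 arrays and 71.3 to 72.7 on the vehicle arrays, so that a probe set near 70 was of middling brightness. Mki67, a gene of dividing cells, averaged 1037 ± 72.4 with PD0332991 and 4197 ± 112 with vehicle (SD, n = 3 each). The keratin gene Krt8 averaged 10596 ± 323 and 9981 ± 105, and the adhesion gene Epcam 9662 ± 66.0 and 9635 ± 166 (PD0332991 and vehicle, SD, n = 3 each). Both epithelial genes were far above the median intensity. Of 14 listed epithelial markers, 11 lay above the median of the tested probe sets. The keratin genes below it averaged 45.5 and 42.3 (Krt5), 18.8 and 28.8 (Krt14) and 1.42 and 1 (Krt19), with PD0332991 and vehicle. In RNA from a whole culture, fewer cells of a type and less RNA per cell cannot be told apart.

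Tslp is an epithelial cytokine that acts on dendritic cells and lymphocytes through a receptor made of Crlf2 and Il7r. Lif and Il6 are relatives that both signal through the shared chain gp130 (Il6st) to the transcription factor STAT3. Il1a, Il1b and Il33 belong to the interleukin-1 family, whose members lack a classical secretion signal and signal through MyD88. Csf1, Csf2 and Csf3 promote the survival and growth of macrophages, of granulocytes with macrophages, and of neutrophils. Many of these genes are induced by NF-kappaB and AP-1, and their mRNAs are typically short-lived.

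Transcripts of 4 of the 9 cytokines were higher with PD0332991, and none was called lower. On their brightest probe sets Tslp, Il6, Lif and Csf1 were 2.48-fold, 1.80-fold, 1.71-fold and 1.65-fold higher, as ratios of intensity + 16. The added 16 makes these ratios smaller than those of the intensities themselves, most of all for dim genes. Mean intensity was 169 and 58.8 for Tslp and 67.8 and 30.5 for Il6, with PD0332991 and vehicle. Il33, Csf2, Il1a, Il1b and Csf3 did not pass the test. By probe set, 6 of 13 were called higher at an adjusted p under 0.05, where 7.87% of all 34945 probe sets were called higher and 9.7% lower. By gene, taking the brightest probe set of each, 4 of 9 were called higher, beside 8.77% of all genes called higher and 10.1% lower. The 2 groups of arrays did not overlap in 9 of the 13 probe sets, as in 36.7% of all probe sets. Without Tslp, 5 of 12 probe sets and 3 of 8 genes were called higher. The 13 log2 fold changes had a median of 0.29, against 0.00 over all probe sets. These shares stand beside one another as a description, since the genes were listed with results known.

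**Figure D1:**
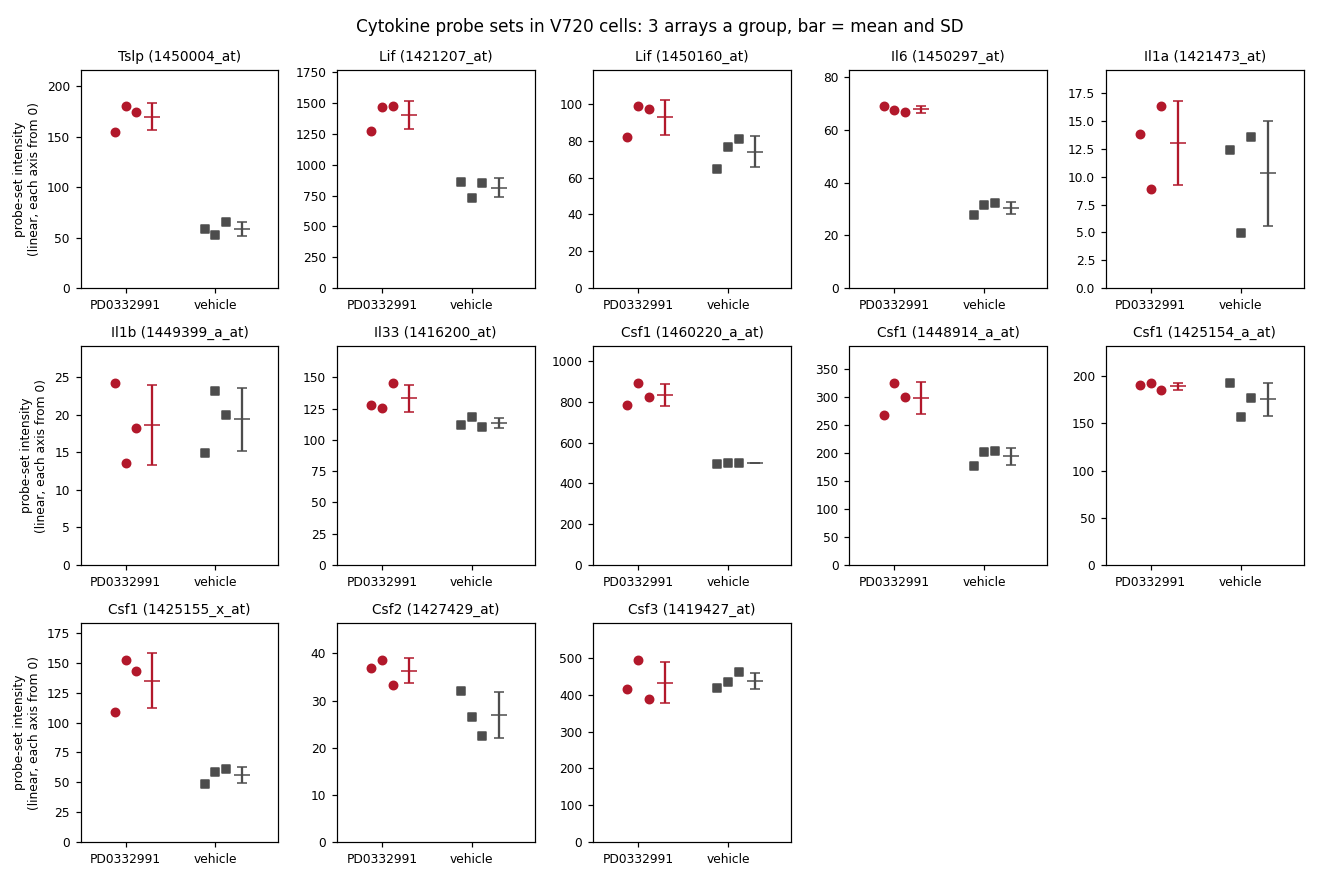
Probe-set intensity (linear, each axis starting at 0) of the 13 cytokine probe sets on the 3 PD0332991 arrays (red circles, left) and the 3 vehicle arrays (grey squares, right), with the mean and SD beside the points. Tslp, Il6, the brighter Lif probe set and 3 of the 4 Csf1 probe sets have all PD0332991 arrays above all vehicle arrays by a clear gap, while Il1a, Il1b and Csf3 overlap.

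Tslp had an intensity of 154, 180.1 and 174 on the 3 PD0332991 arrays, against 58.3, 52.2 and 65.7 on the 3 vehicle arrays. Every PD0332991 array was far above every vehicle array. On the log2(intensity + 16) scale used throughout, which understates the change of dim genes, the log2 fold change was 1.31 (SE 0.09, 95% interval 1.10 to 1.53, n = 3 each). Tslp has a single named probe set here, so the value has no second probe set beside it. Averaged over the 6 arrays on the log2 scale, it lay just below the median of the tested probe sets.

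Both gp130 cytokines rose. Il6, the prototype of the family and an inducer of the acute phase response, had intensities of 69.1, 67.5 and 66.9 with PD0332991, against 27.9, 31.4 and 32.1 with vehicle. Its 3 PD0332991 arrays lay close together, and all were above every vehicle array, which lay well below the array medians. The log2 fold change was 0.85 (SE 0.05, limma adjusted p = 0.000273, n = 3 each). Lif, named for making leukaemia cells differentiate and needed for embryo implantation in mice, was bright: its stronger probe set gave 1276, 1469.5 and 1477 with PD0332991, against 861, 727 and 857 with vehicle. Again the groups did not overlap (log2 fold change 0.78, SE 0.09, adjusted p = 0.00405, n = 3 each).

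A second Lif probe set, annotated to the same source sequence, gave a smaller log2 fold change that was not called. Its values were 81.8, 98.8 and 97.3 with PD0332991 and 64.8, 76.5 and 81.1 with vehicle, so that the groups nearly touched (log2 fold change 0.27, SE 0.10, 95% interval 0.03 to 0.51, adjusted p = 0.118). The stronger minus the dimmer probe set was 3.71 ± 0.016 on the PD0332991 arrays and 3.20 ± 0.22 on the vehicle arrays (log2, SD, n = 3 each). That difference of 0.51 had p = 0.1 in a two-sided exact permutation test, the smallest p that 3 arrays against 3 allow. Averaging both Lif probe sets gave 0.52 on the log2 scale (SE 0.08, adjusted p = 0.00768).

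For Il6, Lif and Csf1, picked because they were called higher, the 250 bases before each start site are shown, from RefSeq on build GRCm38.p6. They lie at chr5:30012864-30013113 on the plus strand (Il6), chr11:4257318-4257567 on the plus strand (Lif) and chr3:107760470-107760719 on the minus strand (Csf1), each 5′ to 3′ towards the gene. Capitals mark every match to 6 motifs searched on both strands. They were the NF-kappaB consensus, named only, and the AP-1 motif TGANTCA. The core promoter motif was the TATA box, TATAAA. The STAT motif was searched as TTCNNNGAA. The cyclic AMP response element was searched as TGACGTCA. The E2F motif was searched as TTTCCCGC or TTTGGCGC, and no matches of different motifs overlapped in these windows.
Il6: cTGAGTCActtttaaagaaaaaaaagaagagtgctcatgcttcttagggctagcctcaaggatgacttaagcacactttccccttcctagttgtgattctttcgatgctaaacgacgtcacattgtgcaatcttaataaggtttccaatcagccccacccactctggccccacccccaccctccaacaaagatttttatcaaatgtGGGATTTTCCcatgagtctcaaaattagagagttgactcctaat
Lif: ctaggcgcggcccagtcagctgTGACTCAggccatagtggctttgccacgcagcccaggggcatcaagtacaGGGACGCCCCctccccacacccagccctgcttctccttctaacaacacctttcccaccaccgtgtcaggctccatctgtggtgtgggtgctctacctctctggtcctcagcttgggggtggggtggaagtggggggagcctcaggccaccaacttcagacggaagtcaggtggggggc
Csf1: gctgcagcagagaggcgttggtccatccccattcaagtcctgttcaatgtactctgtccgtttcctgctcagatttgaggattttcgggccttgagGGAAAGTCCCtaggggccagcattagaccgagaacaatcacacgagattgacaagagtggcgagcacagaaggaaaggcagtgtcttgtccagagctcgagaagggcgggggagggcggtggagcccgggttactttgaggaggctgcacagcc

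Each of these 3 windows held 1 match to the NF-kappaB consensus, GGGATTTTCC in Il6 (bases 44 to 35 before the start), GGGACGCCCC in Lif (178 to 169) and, on the opposite strand, GGAAAGTCCC in Csf1 (154 to 145). The Lif match reads as the consensus on both strands. Such a match occurred in 7.25% of 32851 promoter windows of the same length. Il6 and Lif also held an AP-1 match, TGAGTCA at 249 to 243 and TGACTCA at 228 to 222 before the start, and AP-1 matches occurred in 6.75% of windows. No match to the TATA box, STAT, cyclic AMP or E2F letters lay in the 3 windows, and these occurred in 12.4%, 7.02%, 1.55% and 1.30% of all windows. Among the genes not called, Il1a held an AP-1 match and a match to the TATA box letters, the latter at 32 to 27 before the start. Matches to the TATA box letters lay at 31 to 26 in Il1b. For Il33 they lay at 203 to 198 before start site 1 and at 29 to 24 before start site 2. Csf2 held no match. None of these genes had an NF-kappaB match. RefSeq windows were found for 7 of the 9 genes, and Tslp and Csf3 are named only. A match describes letters and not binding, which was not measured. Whether the matches have a part in the rise of these genes was not tested.

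Of the colony-stimulating factors, Csf1, the macrophage growth factor, rose, and Csf2 and Csf3 did not pass the test. The brightest Csf1 probe set gave 786, 893 and 826 with PD0332991, against 497, 499 and 500.0 with vehicle. The vehicle arrays were nearly identical and all PD0332991 arrays were well above them (log2 fold change 0.72, SE 0.06, adjusted p = 0.000877, n = 3 each). A second probe set, annotated to the same source sequence as the first, gave 269, 326 and 301 with PD0332991, against 177, 202 and 204 with vehicle (log2 fold change 0.58, SE 0.09, adjusted p = 0.00916).

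The other 2 Csf1 probe sets are annotated to another source sequence and did not move alike. One of them, of the type whose probes may also bind other transcripts, gave 109, 153 and 144 with PD0332991, against 48.3, 58.3 and 61.1 with vehicle (log2 fold change 1.07, SE 0.13, adjusted p = 0.00472). The other gave 190.04, 193 and 185 with PD0332991, against 192, 157 and 177 with vehicle, and its groups overlapped (log2 fold change 0.11, SE 0.07, 95% interval -0.08 to 0.29, adjusted p = 0.403). The brightest Csf1 probe set minus this one was 2.05 ± 0.081 with PD0332991 and 1.43 ± 0.14 with vehicle (log2, SD, n = 3 each). That gap differed by 0.62 between the groups (two-sided exact permutation p = 0.1, the smallest possible). The same gap to the other 2 Csf1 probe sets differed by 0.14 for the one of the same source sequence (p = 0.3 in the exact test) and by -0.34 for the one with the largest change (p = 0.1 in the exact test). All 4 Csf1 probe sets are of types that can match several transcripts, and which Csf1 transcripts each one reads was not analysed here. Averaging the 4 probe sets gave 0.62 on the log2 scale (SE 0.07, adjusted p = 0.00227).

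Csf2, which encodes GM-CSF, was dim, with 36.9, 38.7 and 33.4 on the PD0332991 arrays and 32.1, 26.5 and 22.4 on the vehicle arrays. All 3 PD0332991 values were above the vehicle values, by a narrow margin, and the test was not passed (log2 fold change 0.29, SE 0.09, 95% interval 0.06 to 0.51, adjusted p = 0.0891). Without vehicle replicate 1 the same gene passed, with a log2 fold change of 0.37 and adjusted p = 0.0451. Of 19 alternative fits, that was the only 1 in which Csf2 passed. Centring on the hybridization spike-ins gave Csf2 a log2 fold change of 0.18 (adjusted p = 0.449). Csf3, which encodes G-CSF, was well above the median intensity in both groups, with 415, 495 and 388 with PD0332991 and 419, 434 and 461 with vehicle. The groups overlapped, and the log2 fold change was -0.02 (SE 0.10, 95% interval -0.26 to 0.21, adjusted p = 0.899).

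The 3 interleukin-1 family genes were not called. Il33, an alarmin kept in the nucleus of epithelial cells, had 128, 126 and 146 with PD0332991, against 112, 118 and 111 with vehicle. The groups did not overlap, but the shift was small (log2 fold change 0.20, SE 0.06, 95% interval 0.05 to 0.36, adjusted p = 0.0857). When probe sets below the median were left out before the fit, its adjusted p was 0.0185. Of 20 alternative fits, that was the only 1 in which Il33 was called. Centring on the hybridization spike-ins gave Il33 a log2 fold change of 0.09 (adjusted p = 0.662). Il1a, which encodes IL-1 alpha, was close to the bottom of the scale, with 13.8, 8.89 and 16.4 with PD0332991 and 12.4, 4.93 and 13.6 with vehicle. Il1b, which encodes the caspase-1 substrate IL-1 beta, was as dim, with 24.3, 13.6 and 18.2 with PD0332991 and 14.9, 23.2 and 20.03 with vehicle. Both overlapped between groups, with 95% intervals of -0.25 to 0.55 and -0.37 to 0.31 for the log2 fold change (adjusted p = 0.604 and 0.905). These intervals are wide, and both genes lay near the bottom of the scale.

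**Figure D2:**
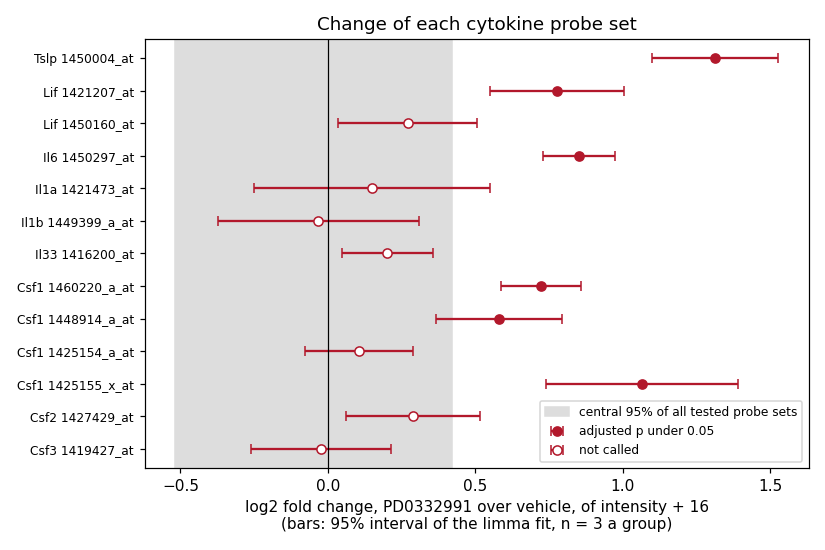
Log2 fold change (PD0332991 over vehicle, of intensity + 16) of each cytokine probe set with its 95% interval from the limma fit (n = 3 arrays a group). Filled points passed an adjusted p of 0.05, and the grey band spans the central 95% of all tested probe sets, -0.52 to 0.42. The 6 filled points, from 0.58 for Csf1 to 1.31 for Tslp, lie right of the band.

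Cells respond to these cytokines only where they carry the receptors, and 13 of 14 listed receptor chains were measured. Il1rl1, a receptor chain for Il33, was not. Lifr, the specific chain of the Lif receptor, fell, with 46.1, 65.0 and 57.3 on the PD0332991 arrays and 106, 97.1 and 108 on the vehicle arrays. The groups were separate, the change lying opposite in sign to that of Lif itself (log2 fold change -0.74, SE 0.10, adjusted p = 0.00737). The 2 dimmer Lifr probe sets, at 0.09 and 0.15 on the log2 scale, were not called. Crlf2, the specific chain of the Tslp receptor, was bright and rose slightly, with 1411, 1407 and 1515 with PD0332991, against 1218, 1282 and 1248 with vehicle (log2 fold change 0.21, SE 0.05, adjusted p = 0.0352). That call was lost when any 1 of the 6 arrays was left out (adjusted p up to 0.101). Il7r, its partner chain, was near the bottom of the scale at 16.6 ± 2.01 with PD0332991 and 8.77 ± 3.45 with vehicle (SD, n = 3 each, adjusted p = 0.0548).

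The remaining receptor chains were not called on their brightest probe sets. Il6st, the gp130 chain that Lif and Il6 share, was bright at 890.3 ± 19.1 with PD0332991 and 811 ± 32.2 with vehicle (log2 fold change 0.13, adjusted p = 0.110), and Il6ra, the specific Il6 chain, averaged 209.9 ± 12.3 and 253 ± 17.4 (log2 fold change -0.25, adjusted p = 0.0561). Il1r1, which binds both IL-1 cytokines, averaged 43.1 ± 7.09 and 61.7 ± 6.71 (log2 fold change -0.40, adjusted p = 0.0554), each pair giving PD0332991 and then vehicle (SD, n = 3 each). Its accessory chain Il1rap was bright, with a log2 fold change of 0.04 (adjusted p = 0.752), although 1 of its 4 other probe sets was called higher by 0.38 (adjusted p = 0.0310). The decoy receptor Il1r2 was near the bottom of the scale (adjusted p = 0.218). A second Csf2rb probe set was also called higher, by 0.31 (adjusted p = 0.0344). The log2 fold changes were 0.05 for Csf1r, the receptor of Csf1, 0.27 for Csf2ra, 0.10 for Csf2rb, -0.03 for Csf2rb2 and 0.04 for Csf3r, whose mean intensity was 4.22 with PD0332991 and 3.74 with vehicle. In the receptor list 1 gene rose and 1 fell, and the median was 0.05 on the log2 scale. Beside this count and those of the lists that follow stand the 8.77% of all genes called higher and the 10.1% called lower. Centring the arrays on the hybridization spike-ins, which moves the median of all probe sets to -0.11, turned that to 0 higher and 3 lower with a median of -0.06, Il1r1 and Il6ra joining Lifr. The shift was smaller without vehicle replicate 1, where spike-in centring moved the median of all probe sets to -0.04. That fit gave 0 receptors higher and 1 lower, with a list median of 0.01. The counts were also 0 and 1 when vehicle replicate 1 was dropped and the arrays were not centred (list median 0.05). These counts therefore cannot separate the effect of the centring from that of the lost array.

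Of 13 genes that process or restrain the interleukin-1 family, 2 rose and 2 fell (median log2 fold change 0.04). Casp1, the protease that cuts IL-1 beta, rose to 1419 ± 88.1 with PD0332991, against 1122 ± 41.8 with vehicle (SD, n = 3 each, adjusted p = 0.0169), and Capn2, a calpain subunit, by 0.19 on the log2 scale (adjusted p = 0.0350). Casp1 kept its call in 2 of the 6 fits that left out 1 array, and Capn2 in none. Pycard, the adaptor that recruits Casp1 to inflammasomes, fell to 1726 ± 51.4 with PD0332991, against 2369 ± 78.9 with vehicle (adjusted p = 0.00238), though its 2 dimmer probe sets were not called. Gsdme, which forms membrane pores when cut, fell by 0.33 on the log2 scale (adjusted p = 0.0158) and kept its call in 4 of those 6 fits. The other Gsdme probe set, which was dim, gave 0.32, of the opposite sign, and did not pass the test (adjusted p = 0.0868). After spike-in centring no gene of this list was called higher and 2 were called lower (1 without vehicle replicate 1). In the list of signalling genes downstream of these receptors, 1 of 18 rose and 1 fell (median log2 fold change -0.00): the adaptor gene Shc1 by 0.48 (adjusted p = 0.0153) and the transcription factor gene Stat5b by -0.26 (adjusted p = 0.0234). Shc1 kept its call in 3 of the 6 fits that left out 1 array and Stat5b in none. Neither was called after spike-in centring, and a dimmer probe set of Shc1 gave 0.09. Stat3 averaged 1937 ± 76.3 with PD0332991 and 1916 ± 9.39 with vehicle (SD, n = 3 each, adjusted p = 0.860) and was named after its values were seen.

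Among genes that respond to STAT factors or to interleukin-1, 4 of 22 rose and 4 fell (median log2 fold change 0.11, and 3 and 4 with a median of 0.00 after spike-in centring). Leaving out PD0332991 replicate 2 or 3 reduced the number that rose to 2. The neutrophil chemokine Cxcl1 rose to 1213 ± 44.8 with PD0332991, against 695 ± 15.2 with vehicle (adjusted p = 0.000258), and its relative Cxcl2 to 43.4 ± 2.38, against 12.2 ± 2.62 (SD, n = 3 each, adjusted p = 0.000638). The other genes that rose were Ptgs2, which encodes cyclooxygenase-2, by 0.90 and Tnfaip3, which encodes the NF-kappaB inhibitor A20, by 0.56 on the log2 scale (adjusted p = 0.0210 and 0.0179). Pim1, a kinase gene induced by STAT factors, fell to 207 ± 4.80 with PD0332991, against 407 ± 17.2 with vehicle (SD, n = 3 each, adjusted p = 0.000162). Its dimmer probe set gave a log2 fold change of -0.11 (adjusted p = 0.658). Bcl3, an atypical NF-kappaB inhibitor protein gene, fell by 0.37 (adjusted p = 0.00288), Osmr, the oncostatin M receptor, by 0.33, and Nfkbiz by 0.26. Socs3, the feedback inhibitor of gp130 signalling, averaged 114 ± 8.78 with PD0332991 and 143 ± 16.3 with vehicle (SD, n = 3 each, log2 fold change -0.29, adjusted p = 0.0814). Ptgs2, Tnfaip3, Osmr, Nfkbiz and Socs3 were named after their values were seen. Each has 2 or 3 probe sets, of which only the brightest is given here.

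Other cytokine genes mostly stayed uncalled: of 29 measured, 5 rose and 1 fell, with a median of 0.07 on the log2 scale. The number that rose was 3 to 6 when 1 array was left out, the lowest without PD0332991 replicate 3. Il23a, the specific subunit of interleukin-23, rose to 2074 ± 70.1 with PD0332991, against 1428 ± 33.4 with vehicle (SD, n = 3 each, adjusted p = 0.00119). Il18, an interleukin-1 relative that Casp1 also cuts, rose to 422 ± 9.26, against 314 ± 13.7 (SD, n = 3 each, adjusted p = 0.00360). The others that rose, named after their values were seen, were Il34, a second ligand of Csf1r (log2 fold change 0.61), Clcf1, a gp130 cytokine (0.48 on the brightest of its 3 probe sets), and Il3, at mean intensities of 8.71 and 3.61 with PD0332991 and vehicle. Kitl, stem cell factor, fell by 0.19 on its brightest probe set (adjusted p = 0.0390), a call kept in 1 of the 6 fits that left out 1 array, and its other 3 probe sets were not called and ranged from -0.19 to 0.48. After spike-in centring Il23a alone of the 29 was called, and 2 were called without vehicle replicate 1 as well.

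Of 12 genes for proteins that control the decay of cytokine mRNAs, 1 rose and 3 fell (median log2 fold change -0.02). Zfp36, tristetraprolin, which speeds the decay of mRNAs with AU-rich elements, rose to 506 ± 28.2 with PD0332991, against 367 ± 29.2 with vehicle (SD, n = 3 each, adjusted p = 0.0114). Hnrnpd, which encodes the AU-rich element binding protein AUF1, fell to 3319 ± 69.0, against 4388 ± 139 (SD, n = 3 each, adjusted p = 0.00283), on all 3 of its probe sets. Elavl1, which encodes the stabilising protein HuR, fell by 0.24 on its brightest probe set (adjusted p under 0.05), and a dimmer probe set was called lower (-0.18), but 2 others were called higher by 0.28 and 0.30. Tial1, named after its value was seen, fell by 0.29 on the brightest of its 5 probe sets, and the others are not given. After spike-in centring Zfp36 (log2 fold change 0.34, adjusted p = 0.0957) and Elavl1 (-0.36, adjusted p = 0.0702) were no longer called.

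**Figure D3:**
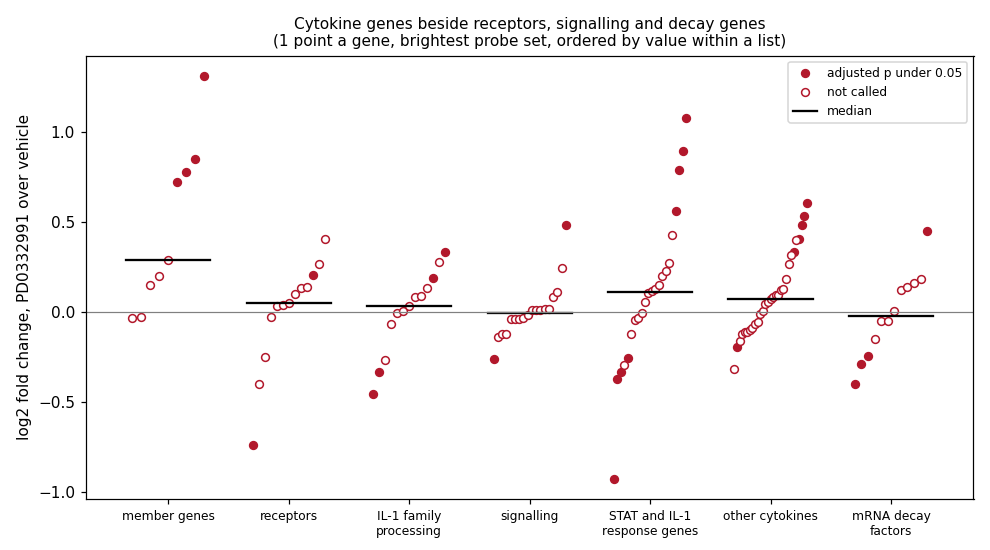
Log2 fold change (PD0332991 over vehicle) of the 9 cytokine genes and of the genes of 6 related lists, 1 point a gene on its brightest probe set, filled where the adjusted p was under 0.05, with the list median as a bar. The cytokine genes have a median of 0.29, and the 6 lists have medians between -0.02 and 0.11.

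The genes with array profiles most like those of the 4 called cytokines were found by the root mean square difference of centred log2 values over the 6 arrays, among up to 8853 named genes above the median intensity. For Tslp they were Npr3, the natriuretic peptide clearance receptor (difference 0.10), H2ac19, a histone H2A gene (0.11), and Col8a1, a collagen gene (0.13). For Lif they were Epgn, an EGF-family ligand (0.03), Atg9b, an autophagy gene (0.04), and Plat, tissue plasminogen activator (0.04). For Il6 they were Lrp11 (0.02), Nt5e, the ecto-nucleotidase CD73 (0.04), and Aox1, aldehyde oxidase (0.05). For Csf1 they were Cst6, a cysteine protease inhibitor (0.04), Acad11 (0.05) and Jag1, a Notch ligand (0.05). The log2 fold changes of these 12 genes ranged from 0.72 for Acad11 to 1.44 for Npr3. The measure includes the difference between the groups, so fold changes like those of the cytokines follow from the choice.

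Markers of other cell types were also read. Among 17 leukocyte genes, 5 were called higher and 1 lower, where 8.77% of all genes were called higher and 10.1% lower, and their summed intensity was 3767 to 4022 on the PD0332991 arrays and 3649 to 3703 on the vehicle arrays. The 5 were Cd68 and S100a8, which averaged 308 ± 14.7 and 380.3 ± 20.4 with PD0332991, against 230.1 ± 15.2 and 291 ± 18.9 with vehicle (SD, n = 3 each), with Ptprc, Adgre1 and Fcer1g. Ptprc, the pan-leukocyte marker CD45, was near the bottom of the scale at 18.2 ± 1.02 and 11.6 ± 1.67, and Cd3e and Itgam averaged 1.33 and 6.31 with PD0332991 and 3.79 and 4.58 with vehicle. Of the 17 genes, 7 lay above the median of the tested probe sets. The brightest were Cd14, at 1905 ± 73.2 and 1740 ± 39.1 and not called, and Kit, at 732 ± 89.4 and 940 ± 18.6 (PD0332991 and vehicle, SD, n = 3 each). Together Cd14 and Kit gave most of the summed intensity. Kit was called lower, a call kept in 1 of the 6 fits that left out 1 array, and its other probe set gave 0.09. After spike-in centring no leukocyte marker was called higher. When 1 array was left out, 2 to 4 were, the fewest without PD0332991 replicate 2 or 3. Their part in the rise of Tslp, Il6, Lif and Csf1 was not tested. Of 10 fibroblast markers none was called higher and 2, Vim and Pdgfra, were lower (the other 2 Pdgfra probe sets were not called). Of 9 endothelial markers 1, Emcn, was lower. It was near the bottom of the scale, at 5.71 ± 0.29 with PD0332991 and 13.2 ± 0.74 with vehicle (SD, n = 3 each). Of the fibroblast markers 3 lay above the median of the tested probe sets, and of the endothelial markers 0. In the list of 14 epithelial markers Cldn4 and Krt7 were called higher and Esrp1 lower. Cldn4 kept its call in 4 of the 6 fits that left out 1 array, and Krt7 and Esrp1 in 1 each. Without PD0332991 replicate 2 none of the 14 was called.

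**Figure D4:**
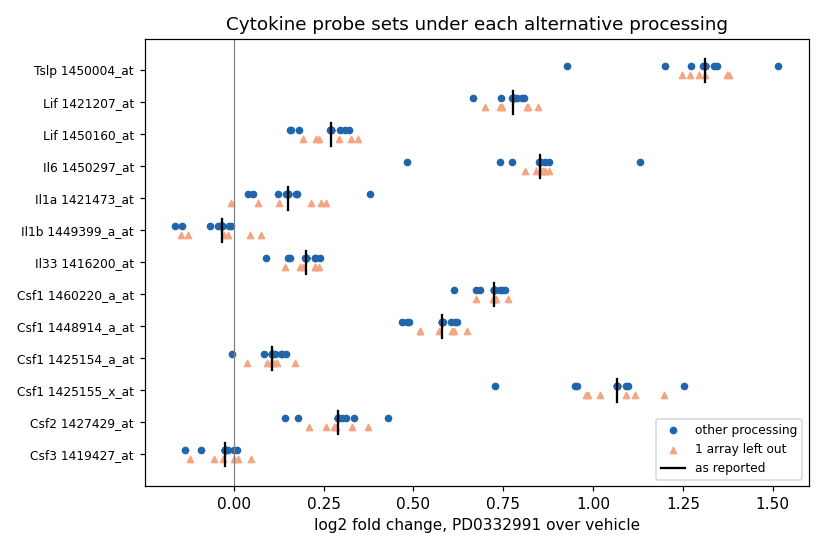
Log2 fold change (PD0332991 over vehicle) of each cytokine probe set as reported (black line), with 1 array left out (orange triangles) and under other processing (blue circles). Tslp, Il6, the brighter Lif probe set and 3 Csf1 probe sets stay at or above 0.47 in every fit shown, and Il1a, Il1b, Csf3 and 1 Csf1 probe set have fits on both sides of 0.

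The 6 cytokine probe sets called higher kept that call in each of the 6 fits that left out 1 array. Their log2 fold changes over those fits were 1.25 to 1.38 for Tslp, 0.81 to 0.88 for Il6, 0.70 to 0.85 for Lif and 0.67 to 0.76 for the brightest Csf1 probe set. After centring on the spike-ins, they were still called. The values of the dim genes Tslp and Il6 moved most with the pseudocount, to 0.93 and 0.48 with 64 added and to 1.52 and 1.13 with 1 added.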

How the data were processed

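Total RNA from 6 V720 cultures was biotin-labelled and hybridized to Affymetrix arrays, per the labels' protocols. The authors deposited 1 linear intensity per probe set and array, and the summarisation method and scaling target are not given in the sources used here. Scaling arrays alike would hide a shift shared by most transcripts. The table holds 45101 probe sets. After 64 controls were left out, 34945 probe sets had exactly 1 symbol in the platform annotation and were tested, while 932 with more than 1 symbol and 9160 without a symbol were not. Gene numbers were checked against a RefSeq table (GRCm38.p6), and 0 symbols needed an update.

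Values were analysed as log2(intensity + 16) with lmFit and eBayes of limma 3.58.1 (R 4.3.3), two-sided, each probe set on its own, with Benjamini-Hochberg adjustment over all 34945 and a threshold of 0.05. The fit used no block and no filter on dim probe sets. A gene in a list is represented by its probe set with the highest mean log2 value. The procedure was tested on simulated data. Other steps used Python 3.11.15 and pandas 2.3.3. The members and the 10 gene lists (157 of 170 entries measured) were chosen with earlier results of these data known. Named genes are the 9 cytokines, all their measured receptor chains, up to 4 genes a list (the called genes of smallest p, at most 2 in each direction), and the 3 nearest profiles of each called cytokine. Mki67, Krt8, Epcam, Krt5, Krt14, Krt19, Ptprc, Adgre1, Fcer1g, Cd14, Cd3e and Itgam fall outside that rule and were named after their values were seen. Genes named outside that rule are given on their brightest probe set only. The 21 alternatives included array-median centring, centring on 18 hybridization spike-in probe sets, quantile normalization, a replicate block, pseudocounts of 1 and 64, a filter on dim probe sets, 1 probe set or the mean a gene, leaving out probe sets that can match several transcripts, trend and robust eBayes, array weights, each array left out, an adjusted p of 0.01 and a 2-fold minimum. Spike-in centring without vehicle replicate 1 was added after the data were seen. The number of arrays limits the precision.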

Additional observations from a re-analysis of the deposited data

How the results depend on the processing

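The count of 6 cytokine probe sets called higher stayed at 6 with quantile normalization, median centring, spike-in centring (with or without vehicle replicate 1), pseudocounts of 1 and 64, trend and robust eBayes, array weights and an adjusted p threshold of 0.01, was 4 with the filter on dim probe sets (which left out Tslp, Il6 and 1 called Csf1 probe set before testing and added Il33), and was 6 or 7 when 1 array was left out. It was 3 without the probe sets that can match several transcripts, which removes all 4 Csf1 probe sets. With a 2-fold minimum it was 2 (1 by gene). That minimum was applied to the ratio of intensity + 16, which was 1.80 for Il6. With a pseudocount of 1 the Il6 log2 fold change was 1.13. No cytokine probe set was called lower in any fit. With the replicate block 6 were again called higher. Correlations of deviations from the group mean were -0.04, -0.11 and 0.16 for same-numbered arrays. For arrays of different numbers they ran from -0.16 to 0.19. With 3 arrays a group, these values cannot tell whether equal numbers mark a pair. The related lists were less steady. Of their genes, 14 were called higher and 12 lower as reported, against 7 and 7 with the replicate block, 4 higher with spike-in centring (6 and 6 without vehicle replicate 1 as well), 23 higher with trend and robust eBayes, 5 and 7 at 0.01, 1 and 0 with a 2-fold minimum, and 7 to 12 higher and 8 to 11 lower when 1 array was left out (9, 8 and 7 higher without vehicle replicate 2, PD0332991 replicate 2 and PD0332991 replicate 3). Over all probe sets 2750 were called higher and 3388 lower. These counts were 1168 and 1702 with the replicate block, 425 and 2576 with spike-in centring, 3601 and 2965 with quantile normalization, 3380 and 2889 with array-median centring, 591 and 1731 with spike-in centring and without vehicle replicate 1 (chosen after seeing the data), 1813 higher without the probe sets that can match several transcripts, 964 and 1504 at 0.01, 49 and 338 with a 2-fold minimum, and 1502 to 1766 and 2075 to 2312 when 1 array was left out. The cause of these shifts was not tested. Intensities near the bottom of the scale, as for Il1a and Il1b, limit what can be seen.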
